A study of Mus musculus with 19 samples.

Results

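The 34 genes described here encode proteins of homologous recombination and of the Fanconi anaemia pathway, with the nucleases, helicases and checkpoint proteins that act beside them. The list is one of symbols, with no threshold on measured values, and was matched to the gene rows of both deposited expression tables. All 34 were found in both tables, out of 22193 genes listed.

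RNA was sequenced from the cerebellum of 19 mice of strain C57BL/6 at postnatal day 60. Gsα, the stimulatory G protein subunit encoded by Gnas, was conditionally knocked out by Olig1Cre in 8 mice (Olig1-Gnas) and by hGFAPCre in 8 mice (hGFAP-Gnas), and 3 wild-type mice served as controls (Ctrl). Olig1Cre acts in the oligodendrocyte lineage and in some other progenitors, and hGFAPCre acts in radial glia and most neural cells that descend from them, so the knockout does not reach every cell of the tissue. No Cre or floxed allele is named for Ctrl, and the deposited table of hGFAP-Gnas, but not that of Olig1-Gnas, carries the word tumor. Whether either knockout was sampled as whole cerebellum or as tumor within it was not given in the sources used here. As background, loss of Gnas in cerebellar progenitors is known to give medulloblastoma of the Hedgehog type in mice. In bulk tissue, fewer cells of a type and less RNA per cell cannot be told apart.

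Homologous recombination repairs a broken DNA end by copying the sister chromatid, which exists only after a cell has replicated its DNA. MRE11, RAD50 and NBS1 bind the end, CtIP and EXO1 cut it back to single strand, BRCA1, PALB2 and BRCA2 prepare that strand for pairing, and RAD54 helps it to invade the copy. In the Fanconi pathway a core complex attaches ubiquitin to FANCD2 and FANCI at a crosslink that blocks a replication fork, and recombination then finishes the repair. Granule neuron progenitors divide in the early postnatal cerebellum and rely on these pathways, while the adult cerebellum is mostly made of neurons that no longer divide.

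The promoters of several members are shown first. They were searched for letters bound by E2F factors, which drive genes of the replication phase. RefSeq promoters of build GRCm38.p6, 300 bases long with 250 before the annotated start and 50 after it, were matched by symbol for 27 of the 34 members, and Rad54b, Rbbp8, Xrcc2, Rad50, Fancd2, Nbn and Exo1 were not matched. The E2F letters searched on both strands were TTTGGCGC, TTTCCCGC, TTTGCCGC, TTTCGCGC and GGCGGGAA, of which TTTCCCGC read on the other strand can overlap GGCGGGAA, as it did in Rad51c and Msh6. Any of them stood in 12 of 27 members (44.4%), namely Bard1, Brca2, Rad51c, Rad51ap1, Fancb, Fancg, Fancm, Chek1, Chek2, Clspn, Topbp1 and Msh6. The share was 4.46% of all 27025 genes in the promoter table and 7.99% of the 10023 of them that were tested for expression.
In the windows below the matched letters are in capitals, with up to 40 bases on each side. The windows lie before the annotated start and outside every exon of the GENCODE annotation, which left 5 of the 12.
Bard1: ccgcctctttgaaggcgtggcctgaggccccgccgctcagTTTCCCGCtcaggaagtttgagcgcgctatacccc
Brca2: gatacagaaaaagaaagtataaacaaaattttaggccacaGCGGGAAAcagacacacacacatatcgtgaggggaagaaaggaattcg
Chek2: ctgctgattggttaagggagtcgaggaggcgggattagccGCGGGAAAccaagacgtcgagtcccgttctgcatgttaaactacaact
Fancb: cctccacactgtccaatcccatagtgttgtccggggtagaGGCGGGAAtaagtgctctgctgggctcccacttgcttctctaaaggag
Topbp1: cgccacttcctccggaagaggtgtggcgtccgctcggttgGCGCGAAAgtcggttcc
In GRCm38.p6 these are chr1:71103147-71103221 on the minus strand for Bard1, chr5:150522413-150522500 on the plus strand for Brca2, chr5:110839791-110839878 on the plus strand for Chek2, chrX:164980379-164980466 on the plus strand for Fancb and chr9:103305158-103305214 on the plus strand for Topbp1. The CCAAT box, bound by the factor NF-Y, stood in 18 of 27 members (66.7%), against 41.1% of all genes and 43.1% of tested genes. TTTGAA, the core of the cell cycle homology region found in many mitotic promoters, stood in 1 of 27 (3.70%), which was Bard1, against 20.2% of all genes and 13.9% of tested genes. Median GC content was 59.7% in members and 60.7% in tested genes. Fancm, whose promoter also held E2F letters, was not called in either knockout. These shares describe letters in a fixed window and carry no test. The part of these letters in the change of the members was not tested.

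The files give FPKM, fragments scaled to transcript length and to the mapped fragments of the library, and no read totals, so read depth is unknown. The commonest ratio among low values put 10 libraries at 0.838 to 1.07 times the depth of Ctrl 2 and 9 at 0.268 to 0.429 times, with both kinds in every group. FPKM summed to 603067 to 689165 per library in Olig1-Gnas, 505739 to 659634 in hGFAP-Gnas and 508329 to 525832 in Ctrl. Gnas itself was listed at 0 in 3 of 8 Olig1-Gnas libraries and at 24.0 to 121 FPKM in the other 5, at 0 in 7 of 8 hGFAP-Gnas libraries and at 40.9 FPKM in 1, and at 651, 798 and 0 FPKM in the Ctrl libraries of the Olig1-Gnas table. Since a wild-type library was listed at 0, and Ctrl 1 also in the other table, Gnas does not check the labels library by library. hGFAP-Gnas 1 and Olig1-Gnas 6 stood apart from their groups, with the lowest median correlation to the other libraries of their own group over expressed genes (0.776 and 0.861), and results are given with and without them.

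Nearly the whole set was higher in the knockouts. In Olig1-Gnas 32 of the 34 members rose and none fell, against a background of 36.2% higher, 23.6% lower and 59.8% in either direction among 14183 genes tested (limma on log2(FPKM + 1), adjusted p under 0.05). In hGFAP-Gnas 26 rose and none fell, against 26.1% higher, 12.8% lower and 38.9% in either direction among 14305 genes tested. The members not called were Fancm and Nbn in Olig1-Gnas, and Rad51c, Xrcc2, Fancc, Fancl, Fancm, Nbn, Atm and Atr in hGFAP-Gnas. Folds were positive for all 34 in both comparisons, which share their Ctrl animals. These counts include 13 members that were under 1 FPKM in all 3 Ctrl libraries and so passed the filter on low values only where they were high. Of the 20 members at 1 FPKM or more in every Ctrl library, 18 rose in Olig1-Gnas, against 33.7% of 12472 genes expressed likewise, with a median log2 fold of 1.25 against 0.12. In hGFAP-Gnas 12 of the 20 rose, against 22.5% of 12483 such genes, with a median of 1.00 against 0.12. Over all 34 members the median was 1.73 in Olig1-Gnas and 1.44 in hGFAP-Gnas. In Olig1-Gnas 27 members were called with at least a 2-fold rise, against 19.9% of tested genes, and in hGFAP-Gnas 22, against 14.4%. Every Olig1-Gnas library lay above every Ctrl library for 27 members, a pattern shown by 32.2% of tested genes, and every hGFAP-Gnas library did so for 17, against 15.2%. No member had every knockout library below Ctrl, a pattern of 21.5% of tested genes for Olig1-Gnas and 8.56% for hGFAP-Gnas. The median over all 34 and the counts of 2-fold rises and of no overlap again take in members from the 13 under 1 FPKM in Ctrl. The filter in part fixes their separation from Ctrl, so the shares of all tested genes are not a like background for them.

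**Figure D1:**
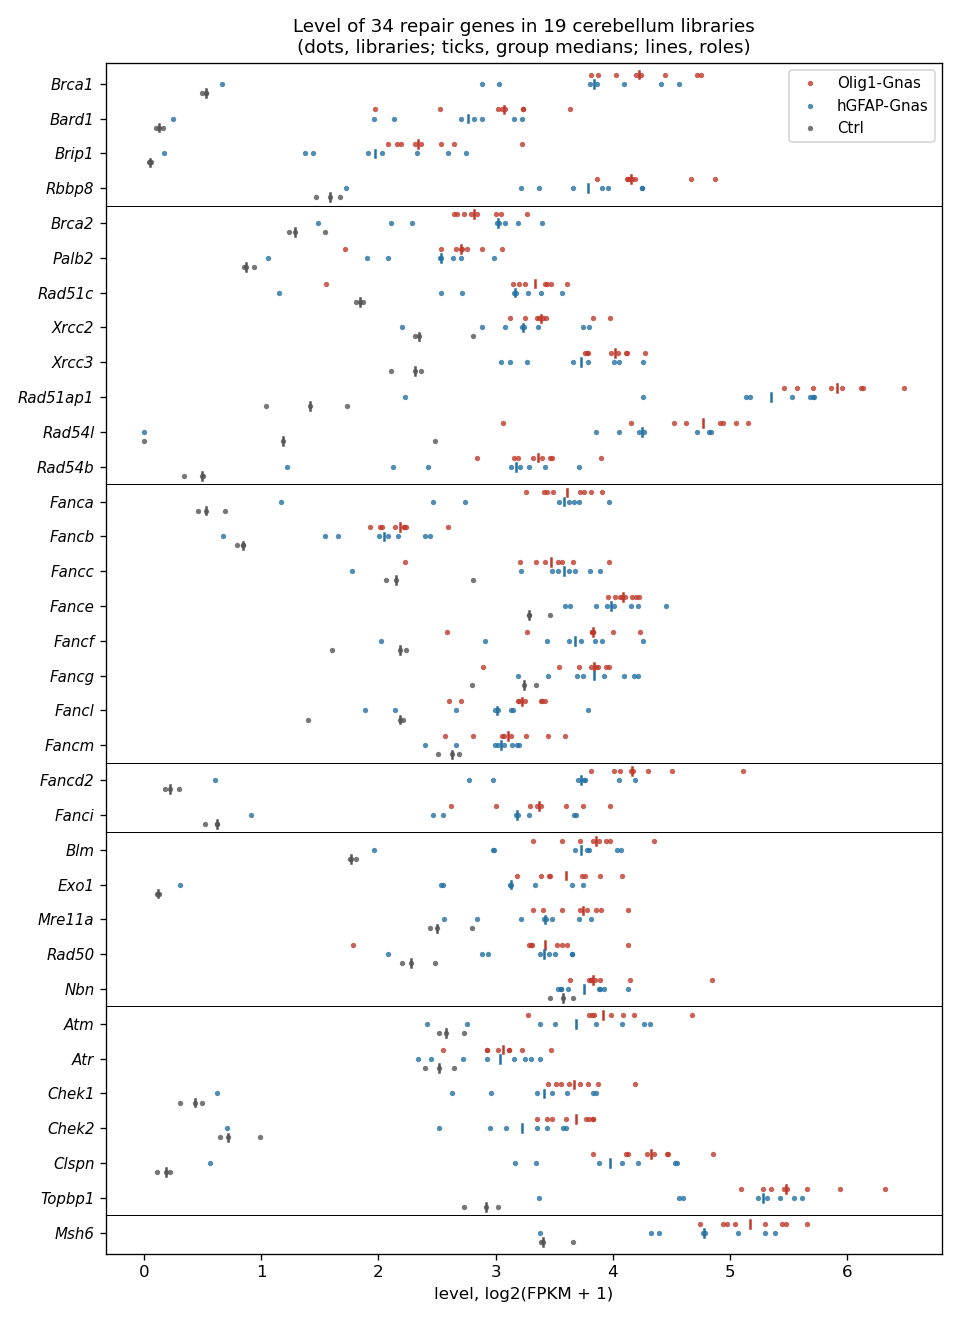
Level of each of the 34 genes, as log2(FPKM + 1), in the 8 Olig1-Gnas, 8 hGFAP-Gnas and 3 Ctrl libraries, with a tick at each group median and lines between roles. Ctrl dots sit near 0 for Brca1, Fancd2, Exo1 and Clspn, where most knockout dots lie well to the right. The groups overlap for Nbn and Fancm, with 7 of 8 Olig1-Gnas libraries above every Ctrl library for each.

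The 34 members passed the filter of 1 FPKM in 3 libraries in each comparison. For the 13 that were under 1 FPKM in all 3 Ctrl libraries the ratio of group means ran between 4.59 and 148 for Olig1-Gnas, and between 3.74 and 105 for hGFAP-Gnas. For the 20 members at 1 FPKM or more in every Ctrl library it ran between 1.41 and 36.1 for Olig1-Gnas, and between 1.17 and 21.5 for hGFAP-Gnas. Rad54l belongs to neither set because Ctrl libraries were listed at 0. The log2 folds below are on the log2(FPKM + 1) scale, which understates the change of genes that are low in Ctrl.

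The 4 genes of the BRCA1 complex were each called higher in both knockouts, though Brca1, Bard1 and Brip1 were under 1 FPKM in Ctrl and passed the filter only through the knockouts. The shares of all tested genes called higher were 36.2% in Olig1-Gnas and 26.1% in hGFAP-Gnas. BRCA1, the ubiquitin ligase that steers a broken end toward recombination, is encoded in mm9 at chr11:101350077-101413269. Brca1 stood at 13.05 to 25.9 FPKM (median 17.6) in Olig1-Gnas, 0.582 to 22.7 (median 13.3) in hGFAP-Gnas, and 0.412, 0.441 and 0.439 in the 3 Ctrl libraries. This gave a log2 fold of 3.74 ± 0.22 (SE, adjusted p = 5.05e-08) in Olig1-Gnas and 2.90 ± 0.68 (SE, adjusted p = 0.0120) in hGFAP-Gnas. All knockout libraries lay above Ctrl, hGFAP-Gnas 1 only just. Bard1, which encodes the partner that BRCA1 needs for its ligase activity, stood at 2.92 to 11.5 FPKM (median 7.38) in Olig1-Gnas, 0.186 to 8.38 (median 5.78) in hGFAP-Gnas, and 0.0926, 0.0723 and 0.116 in the 3 Ctrl libraries, with a fold of 2.84 ± 0.30 (SE, adjusted p = 8.43e-06) in Olig1-Gnas and 2.26 ± 0.53 (SE, adjusted p = 0.0120) in hGFAP-Gnas. Brip1, a helicase that binds BRCA1, stood at 3.23 to 8.33 FPKM (median 4.05) in Olig1-Gnas, 0.123 to 5.69 (median 2.92) in hGFAP-Gnas, and 0.0389, 0.0451 and 0.0301 in the 3 Ctrl libraries, again with no overlap. Its log2 fold was 2.38 (adjusted p = 5.27e-06) in Olig1-Gnas and 1.77 (adjusted p = 0.0156) in hGFAP-Gnas. Rbbp8 encodes CtIP, which starts the trimming of the broken end, and was already at about 2 FPKM in Ctrl. It stood at 13.6 to 28.3 FPKM (median 16.8) in Olig1-Gnas, 2.31 to 18.1 (median 12.8) in hGFAP-Gnas, and 1.99, 1.76 and 2.18 in the 3 Ctrl libraries, a log2 fold of 2.70 (adjusted p = 4.47e-07) in Olig1-Gnas and 1.97 (adjusted p = 0.0112) in hGFAP-Gnas.

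Genes for BRCA2 and for strand invasion included the largest log2 fold of the set on the log2(FPKM + 1) scale. By ratio of group means Clspn was the largest, at 148 in Olig1-Gnas, where Rad51ap1 was at 36.1. Rad51ap1, whose product stimulates strand invasion, is listed in mm9 at chr6:126873436-126889573. It stood at 43.1 to 88.5 FPKM (median 59.1) in Olig1-Gnas, 3.67 to 51.5 (median 40.04) in hGFAP-Gnas, and 2.31, 1.67 and 1.05 in the 3 Ctrl libraries. The log2 fold was 4.52 ± 0.22 (SE, adjusted p = 1.17e-08) in Olig1-Gnas and 3.53 ± 0.65 (SE, adjusted p = 0.00700) in hGFAP-Gnas, and no knockout library reached down to Ctrl. Brca2, whose product acts on the single strand before it invades the copy, had a smaller fold and stood at 5.25 to 8.65 FPKM (median 6.03) in Olig1-Gnas, 1.79 to 9.49 (median 7.10) in hGFAP-Gnas, and 1.36, 1.45 and 1.92 in the 3 Ctrl libraries. Its log2 fold was 1.52 ± 0.18 (SE, adjusted p = 2.42e-05) in Olig1-Gnas and 1.34 ± 0.37 (SE, adjusted p = 0.0202) in hGFAP-Gnas, with hGFAP-Gnas 1 inside the Ctrl range. Palb2, the bridge between BRCA1 and BRCA2, rose by 1.74 in Olig1-Gnas and 1.42 in hGFAP-Gnas, also on the log2 scale. Rad54b, a motor protein related to RAD54, rose by 2.90 and 2.37 in the same order of groups. Palb2 and Rad54b were under 1 FPKM in Ctrl and passed the filter only through the knockouts. Xrcc3, Xrcc2 and Rad51c, which encode related proteins of recombination, had smaller folds than Rad51ap1 and Rad54b. Xrcc3 rose by 1.72 in Olig1-Gnas and 1.39 in hGFAP-Gnas. Xrcc2 rose by 0.98 (adjusted p = 0.00130) in Olig1-Gnas but had 0.70 (adjusted p = 0.0794) in hGFAP-Gnas. Rad51c stood at 1.94 to 11.2 FPKM (median 9.11) in Olig1-Gnas, 1.22 to 10.8 (median 7.97) in hGFAP-Gnas, and 2.58, 2.51 and 2.65 in the 3 Ctrl libraries. Its log2 fold was 1.30 ± 0.36 (SE, adjusted p = 0.00858) in Olig1-Gnas and 1.03 ± 0.42 (SE, adjusted p = 0.0723) in hGFAP-Gnas, and Olig1-Gnas 6 and hGFAP-Gnas 1 were the libraries below Ctrl. Without hGFAP-Gnas 1 Rad51c was 1.27 (adjusted p = 0.000631) and Xrcc2 0.85 (adjusted p = 0.00619).

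Rad54l, the RAD54 motor that acts during strand invasion, was listed at 0 in some libraries and is less certain. Its FPKM ran between 7.37 and 34.5 for Olig1-Gnas, and between 0 and 27.6 for hGFAP-Gnas, where the 0 was hGFAP-Gnas 1. Ctrl 1, 2 and 3 were listed at 4.59, 0 and 1.28 FPKM in the Olig1-Gnas table, while Ctrl 1 was listed at 0 in the hGFAP-Gnas table. An exact 0 can be a failed estimate. The log2 fold was 3.33 ± 0.51 (SE, adjusted p = 0.000165) in Olig1-Gnas and 3.45 ± 0.87 (SE, adjusted p = 0.0151) in hGFAP-Gnas, and with zeros treated as missing it was 2.72 (adjusted p = 0.000671) and 3.21 (adjusted p = 0.00482).

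The Fanconi core complex changed unevenly, with 7 of 8 genes called higher in Olig1-Gnas and 5 of 8 in hGFAP-Gnas. The shares of all tested genes called higher were 36.2% and 26.1% in the same order. Fanca and Fancb were under 1 FPKM in Ctrl and passed the filter only through the knockouts. Fanca stood out and was at 8.55 to 14.01 FPKM (median 11.2) in Olig1-Gnas, 1.24 to 14.6 (median 10.97) in hGFAP-Gnas, and 0.444, 0.614 and 0.378 in the 3 Ctrl libraries. The fold came to 3.04 ± 0.18 (SE, adjusted p = 5.35e-08) in Olig1-Gnas and 2.55 ± 0.51 (SE, adjusted p = 0.00847) in hGFAP-Gnas. Fancl, the ubiquitin ligase subunit of the complex, stood at 5.06 to 9.70 FPKM (median 8.36) in Olig1-Gnas, 2.70 to 12.8 (median 7.05) in hGFAP-Gnas, and 3.55, 3.63 and 1.64 in the 3 Ctrl libraries. It rose by 1.21 (adjusted p = 0.00107) in Olig1-Gnas, and its fold was 0.91 (adjusted p = 0.0640) in hGFAP-Gnas. Fancb, a partner of FANCL in the catalytic module, rose by 1.35 (adjusted p = 4.36e-05) in Olig1-Gnas and 1.05 (adjusted p = 0.0292) in hGFAP-Gnas. Fancf, an adaptor between modules, rose by 1.67 (adjusted p = 0.000578) and 1.46 (adjusted p = 0.0190) in the same order. Fance, which contacts FANCD2, was already at 8.73 to 10.02 FPKM in Ctrl and rose by 0.76 (adjusted p = 0.000100) in Olig1-Gnas and 0.64 (adjusted p = 0.0219) in hGFAP-Gnas, with no overlap between either knockout and Ctrl. It ran between 14.6 and 17.7 FPKM for Olig1-Gnas, and between 11.1 and 20.9 for hGFAP-Gnas. Fancc, the binding partner of FANCE and FANCF, rose by 1.02 (adjusted p = 0.0132) in Olig1-Gnas and had 1.04 (adjusted p = 0.0542) in hGFAP-Gnas. Fancg, a scaffold that binds FANCA, rose by 0.57 (adjusted p = 0.0433) in Olig1-Gnas and 0.68 (adjusted p = 0.0380) in hGFAP-Gnas. In both knockouts 7 of 8 libraries were above every Ctrl library for Fancg. Fancm, the DNA translocase that anchors the complex at the crosslink, stood at 4.93 to 11.1 FPKM (median 7.59) in Olig1-Gnas, 4.26 to 8.17 (median 7.26) in hGFAP-Gnas, and 5.43, 4.68 and 5.20 in the 3 Ctrl libraries. It was called in neither knockout, with 0.51 ± 0.21 (SE, adjusted p = 0.0529) in Olig1-Gnas and 0.35 ± 0.19 (SE, adjusted p = 0.152) in hGFAP-Gnas, and without Olig1-Gnas 6 it was 0.59 (adjusted p = 0.00922) in Olig1-Gnas.

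Both substrates of the core complex rose in both knockouts. Each was under 1 FPKM in Ctrl and passed the filter only through the knockouts. The shares of all tested genes called higher were 36.2% in Olig1-Gnas and 26.1% in hGFAP-Gnas. Fancd2, at chr6:113481675-113546279 in mm9, stood at 13.1 to 33.6 FPKM (median 16.9) in Olig1-Gnas, 0.520 to 17.2 (median 12.2) in hGFAP-Gnas, and 0.163, 0.232 and 0.133 in the 3 Ctrl libraries. Its log2 fold was 4.03 ± 0.24 (SE, adjusted p = 5.64e-08) in Olig1-Gnas and 2.99 ± 0.63 (SE, adjusted p = 0.00928) in hGFAP-Gnas, and the ratio of group means was 108 in Olig1-Gnas and 59.1 in hGFAP-Gnas. Fanci, which pairs with FANCD2 as a clamp on DNA, stood at 5.16 to 14.7 FPKM (median 9.35) in Olig1-Gnas, 0.879 to 11.8 (median 8.08) in hGFAP-Gnas, and 0.539, 0.432 and 0.541 in the 3 Ctrl libraries. Its fold was 2.78 ± 0.26 (SE, adjusted p = 2.84e-06) in Olig1-Gnas and 2.28 ± 0.50 (SE, adjusted p = 0.0101) in hGFAP-Gnas. Within each library, where FPKM allows genes to be compared per length, the level of Fancd2 was 1.65 to 2.93 times that of Fanci in Olig1-Gnas, 0.592 to 1.55 times in hGFAP-Gnas and 0.245 to 0.536 times in Ctrl. Fancd2 was above Fanci in all 8 Olig1-Gnas libraries and in 7 of 8 hGFAP-Gnas libraries, hGFAP-Gnas 1 being the exception, and below it in all 3 Ctrl libraries, where both genes were under 1 FPKM. These ratios carry no test.

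**Figure D2:**
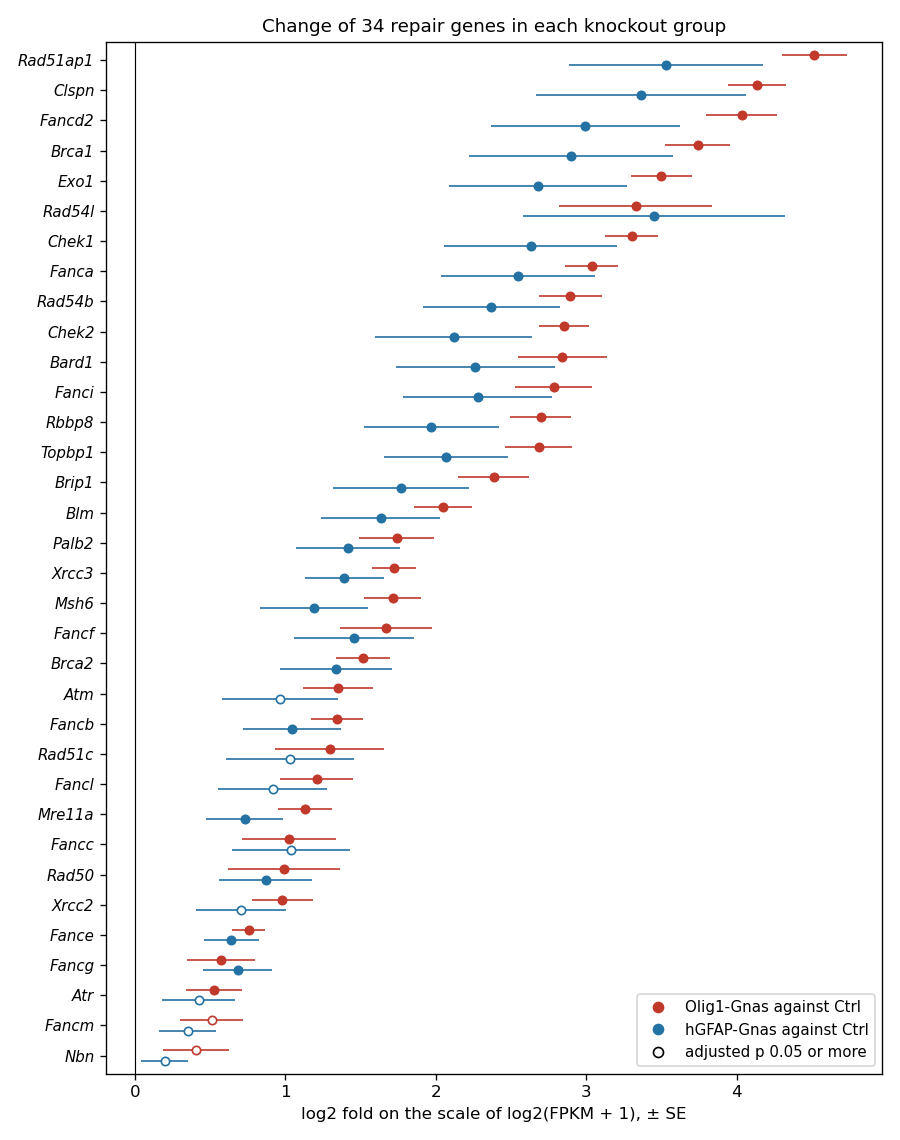
Log2 fold of each gene against Ctrl on the log2(FPKM + 1) scale, with its SE, for Olig1-Gnas and hGFAP-Gnas, ordered by the fold in Olig1-Gnas. Rad51ap1, Clspn and Fancd2 stand at the top at 4.52, 4.14 and 4.03, and open symbols at the lower end mark genes that were not called.

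Of the 5 end-processing genes 4 were called higher in both knockouts, and Nbn in neither. The shares of all tested genes called higher were 36.2% in Olig1-Gnas and 26.1% in hGFAP-Gnas. Exo1 was under 1 FPKM in Ctrl and passed the filter only through the knockouts. Exo1, the long-range exonuclease, stood at 8.10 to 15.9 FPKM (median 11.2) in Olig1-Gnas, 0.238 to 12.4 (median 7.74) in hGFAP-Gnas, and 0.0845, 0.0786 and 0.0954 in the 3 Ctrl libraries. The fold of Exo1 was 3.50 ± 0.20 (SE, adjusted p = 4.75e-08) in Olig1-Gnas and 2.68 ± 0.59 (SE, adjusted p = 0.0104) in hGFAP-Gnas, with no overlap in either knockout. Blm, the helicase mutated in Bloom syndrome, stood at 8.97 to 19.4 FPKM (median 13.5) in Olig1-Gnas, 2.90 to 15.7 (median 12.2) in hGFAP-Gnas, and 2.50, 2.40 and 2.38 in the 3 Ctrl libraries, a log2 fold of 2.05 (adjusted p = 3.55e-06) in Olig1-Gnas and 1.63 (adjusted p = 0.0134) in hGFAP-Gnas. Mre11a, the nuclease of the complex, rose by 1.13 (adjusted p = 0.000233) and 0.73 (adjusted p = 0.0419) in the same order. Rad50, the ATPase that tethers the ends, stood at 2.44 to 16.5 FPKM (median 9.72) in Olig1-Gnas, 3.22 to 11.6 (median 9.68) in hGFAP-Gnas, and 3.86, 3.61 and 4.60 in the 3 Ctrl libraries. Its log2 fold was 0.99 ± 0.37 (SE, adjusted p = 0.0363) in Olig1-Gnas and 0.87 ± 0.31 (SE, adjusted p = 0.0441) in hGFAP-Gnas, with Olig1-Gnas 6 and hGFAP-Gnas 1 below Ctrl. Without Olig1-Gnas 6 the fold of Rad50 in Olig1-Gnas was 1.21 (adjusted p = 0.000193). Nbn, which encodes NBS1, the subunit that recruits ATM, is listed in mm9 at chr4:15885113-15919736. Nbn was the most abundant member in Ctrl and stood at 11.4 to 27.7 FPKM (median 13.2) in Olig1-Gnas, 10.6 to 16.5 (median 12.5) in hGFAP-Gnas, and 11.6, 10.01 and 10.9 in the 3 Ctrl libraries. The groups overlapped, and its log2 fold was 0.41 ± 0.22 (SE, adjusted p = 0.127) in Olig1-Gnas and 0.20 ± 0.15 (SE, adjusted p = 0.315) in hGFAP-Gnas. Olig1-Gnas 6 held the highest Nbn value, and without it the fold was smaller but called, at 0.28 (adjusted p = 0.0408). The level of Nbn over that of Mre11a in a library was 0.939 to 3.08 (median 1.03) in Olig1-Gnas, 1.11 to 2.24 (median 1.27) in hGFAP-Gnas and 1.83 to 2.50 in Ctrl, while Rad50 over Mre11a had medians of 0.812, 0.958 and 0.817 in the same order.

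All 6 checkpoint genes were called higher in Olig1-Gnas and 4 in hGFAP-Gnas, where Atm and Atr were not. The shares of all tested genes called higher were 36.2% and 26.1% in the same order. Clspn, Chek1 and Chek2 were under 1 FPKM in Ctrl and passed the filter only through the knockouts. Clspn encodes claspin, the adaptor through which ATR activates CHK1, and is listed in mm9 at chr4:126234223-126271147. It stood at 13.2 to 27.9 FPKM (median 19.001) in Olig1-Gnas, 0.479 to 22.4 (median 14.8) in hGFAP-Gnas, and 0.0821, 0.139 and 0.169 in the 3 Ctrl libraries. The log2 fold was 4.14 ± 0.19 (SE, adjusted p = 1.08e-08) in Olig1-Gnas and 3.36 ± 0.70 (SE, adjusted p = 0.00910) in hGFAP-Gnas, the second largest of the set in Olig1-Gnas. Chek1, the kinase CHK1, stood at 9.87 to 17.2 FPKM (median 11.7) in Olig1-Gnas, 0.542 to 13.5 (median 9.68) in hGFAP-Gnas, and 0.409, 0.237 and 0.348 in the 3 Ctrl libraries. The fold of Chek1 was 3.30 ± 0.18 (SE, adjusted p = 2.98e-08) in Olig1-Gnas and 2.63 ± 0.58 (SE, adjusted p = 0.0101) in hGFAP-Gnas. Chek2, the kinase downstream of ATM, stood at 9.23 to 13.3 FPKM (median 11.9) in Olig1-Gnas, 0.630 to 11.1 (median 8.37) in hGFAP-Gnas, and 0.567, 0.983 and 0.644 in the 3 Ctrl libraries, a log2 fold of 2.85 (adjusted p = 5.69e-08) in Olig1-Gnas and 2.12 (adjusted p = 0.0140) in hGFAP-Gnas. Topbp1, the activator of ATR, was the second most abundant member in the knockouts and stood at 33.1 to 79.2 FPKM (median 43.5) in Olig1-Gnas, 9.32 to 48.1 (median 37.8) in hGFAP-Gnas, and 7.12, 6.56 and 5.63 in the 3 Ctrl libraries. Topbp1 had a log2 fold of 2.68 ± 0.22 (SE, adjusted p = 1.23e-06) in Olig1-Gnas and 2.07 ± 0.41 (SE, adjusted p = 0.00830) in hGFAP-Gnas. The sensor kinases had the smallest folds of the checkpoint genes. Atm stood at 8.70 to 24.6 FPKM (median 14.1) in Olig1-Gnas, 4.33 to 18.98 (median 11.9) in hGFAP-Gnas, and 4.98, 4.71 and 5.62 in the 3 Ctrl libraries, with a fold of 1.35 (adjusted p = 0.000358) in Olig1-Gnas and 0.97 (adjusted p = 0.0648) in hGFAP-Gnas. Atr stood at 4.86 to 10.1 FPKM (median 7.37) in Olig1-Gnas, 4.07 to 9.43 (median 7.24) in hGFAP-Gnas, and 5.24, 4.26 and 4.72 in the 3 Ctrl libraries, with a fold of 0.53 (adjusted p = 0.0292) in Olig1-Gnas and 0.42 (adjusted p = 0.174) in hGFAP-Gnas. Without hGFAP-Gnas 1, Atm in hGFAP-Gnas was 1.13 (adjusted p = 0.00836) and Atr 0.51 (adjusted p = 0.0543). The level of Chek1 over that of Atr had medians of 1.59 in Olig1-Gnas, 1.33 in hGFAP-Gnas and 0.0738 in Ctrl. Its ranges were 1.29 to 2.64, 0.133 to 1.70 and 0.0558 to 0.0781 in the same order. For Chek2 over Atm the medians were 0.794, 0.522 and 0.115, and the ranges 0.523 to 1.06, 0.145 to 1.17 and 0.114 to 0.209. hGFAP-Gnas 1 was the lowest of its group for both, and inside the Ctrl range for Chek2 over Atm. Chek1 and Chek2 were under 1 FPKM in Ctrl, and these ratios carry no test.

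Msh6, whose product recognizes mismatched bases, completes the set. It stood at 25.8 to 49.3 FPKM (median 35.2) in Olig1-Gnas, 9.37 to 40.9 (median 26.4) in hGFAP-Gnas, and 9.49, 9.58 and 11.6 in the 3 Ctrl libraries. The fold of Msh6 was 1.71 ± 0.19 (SE, adjusted p = 1.33e-05) in Olig1-Gnas and 1.19 ± 0.36 (SE, adjusted p = 0.0257) in hGFAP-Gnas, and only hGFAP-Gnas 1 lay within the Ctrl range or below it.

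The 2 knockouts were then compared with each other, each from its own table, since Ctrl 2 and 3 were identical between the tables and Ctrl 1 differed by at most 0.0185 on the log2 scale in the members it shared above 0. No member was called (limma, smallest adjusted p = 0.171), against a background of 0.146% higher, 0.264% lower and 0.41% in either direction among 14386 genes tested. 0 members had every Olig1-Gnas library above every hGFAP-Gnas library and 0 the reverse, patterns of 0.306% and 0.292% of tested genes. At an unadjusted p under 0.05 there were 8 of 34 members, all higher in Olig1-Gnas, a share near the 23.7% of all tested genes in either direction. The log2 difference was positive for 32 of 34 members with a median of 0.41, against 0.01 over all tested genes. The largest was Fancd2 with 1.04 (95% interval 0.19 to 1.89, adjusted p = 0.171), at 18.97 ± 6.43 FPKM in Olig1-Gnas and 10.4 ± 5.56 in hGFAP-Gnas (SD, n = 8 each). Rad51ap1 followed with 0.99 (95% interval 0.13 to 1.84, adjusted p = 0.180), at 60.7 ± 14.7 FPKM in Olig1-Gnas and 36.2 ± 17.5 in hGFAP-Gnas. For Brca1 the difference was 0.84 (95% interval -0.06 to 1.75, adjusted p = 0.235). At the other end Fancg had -0.11 (95% interval -0.49 to 0.27, adjusted p = 0.725) and Fancc -0.01 (95% interval -0.61 to 0.59, adjusted p = 0.985). Without hGFAP-Gnas 1 the differences were smaller, at 0.67 (adjusted p = 0.169) for Fancd2, 0.60 (adjusted p = 0.183) for Rad51ap1 and 0.45 (adjusted p = 0.327) for Brca1. A missed threshold does not show that the knockouts act alike. With hGFAP-Gnas 1 and Olig1-Gnas 6 both left out, a choice made after seeing the data, no member was called either. The knockouts were also unbalanced in Y-linked signal (Ddx3y at 1 FPKM or more), seen in 7 hGFAP-Gnas mice but only 2 from Olig1-Gnas. Fitting it as a term left 3 of 14386 genes called between the knockouts, against 59 without it. The share at an unadjusted p under 0.05 was then 4.53%, against 23.7% (limma). The part of this imbalance in the differences of the members was not tested.

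**Figure D3:**
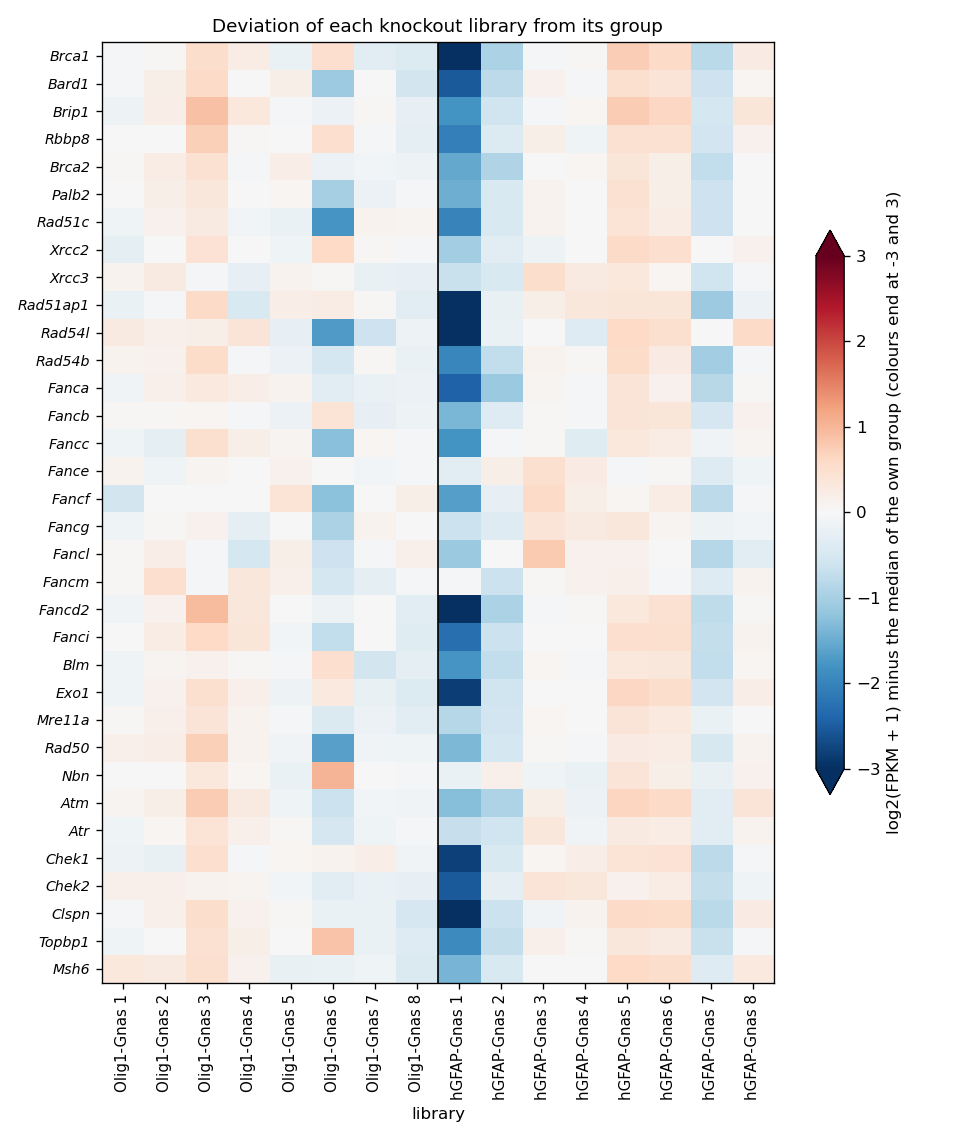
Deviation of each knockout library from the median of its own group, as log2(FPKM + 1), for the 34 genes, with colours that end at -3 and 3. The column of hGFAP-Gnas 1 is low for nearly every gene, and that of Olig1-Gnas 6 is mixed, with 18 genes at the lowest and 5 at the highest value of the group.

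Libraries of a group did not hold the set at the same level. The 34 members summed to 422 to 685 FPKM in Olig1-Gnas (median 495), 112 to 552 in hGFAP-Gnas (median 429) and 97.9 to 110 in Ctrl. hGFAP-Gnas 1 was the lowest of its group for 31 members, and its sum of 112 FPKM lay just above Ctrl. Olig1-Gnas 3 held the highest value of its group for 22 members, and hGFAP-Gnas 5 for 23. Without hGFAP-Gnas 1, 31 members were called higher in hGFAP-Gnas, against 38.0% of tested genes, and without Olig1-Gnas 6 all 34 in Olig1-Gnas, against 42.1%. Leaving out Ctrl 1, 2 or 3 left 28, 28 and 29 members called higher in Olig1-Gnas, against 30.9%, 31.0% and 31.5% of tested genes. In hGFAP-Gnas it left 9, 7 and 14, against 5.98%, 4.78% and 10.5%. Within the deeper libraries 27 members were called in Olig1-Gnas, against 29.1% of tested genes, and 0 in hGFAP-Gnas, where 6 of 13872 genes were called at all and 2651 had an unadjusted p under 0.05. In that comparison all 34 folds were still positive, the largest being Rad51ap1 at 3.07 (adjusted p = 0.259), and with hGFAP-Gnas 1 also left out 28 members were called, against 30.8%. Within the shallower libraries 29 were called in Olig1-Gnas, against 26.8%, and 19 in hGFAP-Gnas, against 14.4%. Y-linked signal was present in 2 of 8 Olig1-Gnas, 7 of 8 hGFAP-Gnas and 2 of 3 Ctrl libraries, and with it as a term 30 members were called in Olig1-Gnas, against 33.7%, and 27 in hGFAP-Gnas, against 27.1%.

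Markers of several cell types also differed from Ctrl, some higher and some lower. As background, 36.2% of all tested genes were called higher and 23.6% lower in Olig1-Gnas, and 26.1% and 12.8% in hGFAP-Gnas. Among the markers of dividing cells, Mki67 was at 0.188 to 0.325 FPKM in Ctrl and passed the filter only through the knockouts. The 12 genes of dividing cells were all called higher in both knockouts and summed to 928 to 1823 FPKM in Olig1-Gnas, 64.6 to 1270 in hGFAP-Gnas and 41.2 to 46.9 in Ctrl. The 6 genes of granule progenitors were also all called higher and summed to 601 to 1217 FPKM in Olig1-Gnas, 36.9 to 1054 in hGFAP-Gnas and 8.98 to 12.0 in Ctrl. In both lists hGFAP-Gnas 1 was the lowest knockout library, as it was for the members. Mature granule neuron genes were lower for 8 of 8 in Olig1-Gnas and 7 of 8 in hGFAP-Gnas, with sums of 60.9 to 479, 111 to 1500 and 1756 to 2327 FPKM in Olig1-Gnas, hGFAP-Gnas and Ctrl. Among them Gabra6, a receptor subunit of mature granule neurons, was at 0 to 75.7 FPKM in Olig1-Gnas, 4.48 to 261 in hGFAP-Gnas, where hGFAP-Gnas 1 was the highest, and 224 to 468 in Ctrl. Purkinje cell genes were lower for 7 of 7 and 6 of 7, and mature oligodendrocyte genes for 8 of 8 and 2 of 8, in Olig1-Gnas and hGFAP-Gnas. Genes of microglia and macrophages were higher for 7 of 9 in Olig1-Gnas and 9 of 9 in hGFAP-Gnas, with sums of 608 to 2217, 155 to 1355 and 71.6 to 107 FPKM in Olig1-Gnas, hGFAP-Gnas and Ctrl. Oligodendrocyte precursor genes were higher for 3 of 6 and 5 of 6, and genes of Bergmann glia and astrocytes were higher for 1 and lower for 5 of 8 in Olig1-Gnas and higher for 1 and lower for 3 of 8 in hGFAP-Gnas. Vascular genes were lower for 2 of 6 in Olig1-Gnas and called for 0 of 6 in hGFAP-Gnas, and choroid plexus genes were called for 0 of 4 in both. No listed marker was at 0 in a whole group. The part of these cell types in the change of the 34 genes was not tested.

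Within each knockout group the members were compared with Mki67, a gene expressed in dividing cells, over 8 libraries by Pearson and Spearman correlation of log2(FPKM + 1), with exact permutation p-values adjusted over the 68 correlations. In hGFAP-Gnas, where Mki67 was at 2.70 to 165 FPKM, 30 of 34 members correlated with it by Pearson and 26 by Spearman, with a median r of 0.960. Leaving out hGFAP-Gnas 1 and 2, farthest from the median of Mki67, kept a median r of 0.900 over 6 libraries, with 22 members called by Pearson and 1 by Spearman. In Olig1-Gnas, where Mki67 was at 78.7 to 264 FPKM, 7 of 34 correlated by Pearson and 7 by Spearman, with a median r of 0.238. Leaving out Olig1-Gnas 6 and 8 raised the median r to 0.746, with 13 members called by Pearson and 3 by Spearman. Olig1-Gnas 6 held the highest Mki67 but low values of many members. Over 6 libraries the smallest p that permutation can give is 0.00139 for Pearson and 0.00278 for Spearman, before adjustment. For comparison over all tested genes, in hGFAP-Gnas 30 of 34 members had a positive r at an unadjusted p under 0.05, against 27.4% of 14304 genes, whose median r was 0.32. In Olig1-Gnas 8 of 34 did, against 6.63% of 14182 genes, whose median r was -0.22. Without the 2 farthest libraries the counts were 23 in hGFAP-Gnas, against 11.7%, and 14 in Olig1-Gnas, against 5.28%.

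Brca1 followed Mki67 in both groups, with r = 0.973 (rho = 0.976, adjusted p = 0.000675 and 0.00385) in Olig1-Gnas and r = 0.991 (rho = 0.952, adjusted p = 0.000675 and 0.00597) in hGFAP-Gnas (exact permutation, n = 8 each). Without the 2 farthest libraries its r was 0.987 and 0.971. Topbp1 had r = 0.962 in Olig1-Gnas and 0.974 in hGFAP-Gnas, and Exo1 had 0.941 and 0.996. Rad50 and Rad51c had r = -0.279 and -0.546 in Olig1-Gnas, and 0.977 and 0.985 in hGFAP-Gnas. Without Olig1-Gnas 6 and 8 their r in Olig1-Gnas was 0.885 and 0.453, so the negative values rest on those libraries. Nbn had r = 0.762 (adjusted p = 0.0223) in Olig1-Gnas and 0.514 (adjusted p = 0.252) in hGFAP-Gnas (exact permutation, n = 8 each). Fance and Fancm had the lowest r in hGFAP-Gnas, at 0.467 and 0.273. Whether r differs between the groups was not tested.

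**Figure D4:**
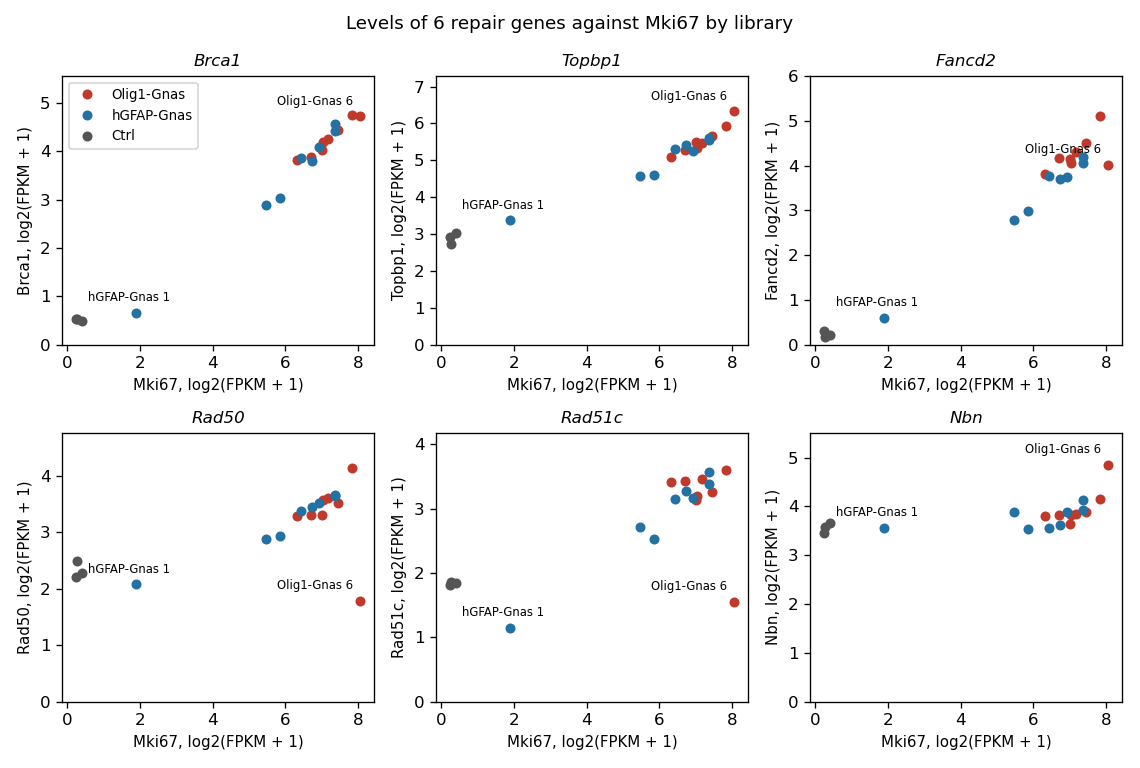
Level of Brca1, Topbp1, Fancd2, Rad50, Rad51c and Nbn against that of Mki67, both as log2(FPKM + 1), for each Olig1-Gnas, hGFAP-Gnas and Ctrl library. hGFAP-Gnas 1 lies near Ctrl in each panel, and Olig1-Gnas 6 has the highest Mki67 but lies below Ctrl for Rad50 and Rad51c.

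Other repair pathways are given for comparison. Of 37 tested genes of homologous recombination and the Fanconi pathway outside the set, 25 were called higher and 1 lower in Olig1-Gnas, and 17 higher and 1 lower in hGFAP-Gnas, with median log2 folds of 0.77 and 0.56. Over all tested genes 36.2% were higher and 23.6% lower in Olig1-Gnas, and 26.1% and 12.8% in hGFAP-Gnas. The medians over all tested genes were 0.22 and 0.19. Eme1, a subunit of the MUS81 nuclease, averaged 14.4 ± 4.32 FPKM, against 0.104 ± 0.0409 in Ctrl (SD, n = 8 and 3), for Olig1-Gnas, a fold of 3.75 ± 0.27 (adjusted p = 3.22e-07), and had 3.06 ± 0.64 (adjusted p = 0.00928) in hGFAP-Gnas. Gen1, a nuclease that cuts Holliday junctions, had 2.88 ± 0.36 (adjusted p = 3.32e-05) and 2.26 ± 0.58 (adjusted p = 0.0155) in the same order. Eme1 and Gen1 were under 1 FPKM in the 3 Ctrl libraries and passed the filter only through the knockouts. The lower genes were Rad51l3 in Olig1-Gnas, at -0.56 ± 0.20 (adjusted p = 0.0286), and Mus81, the catalytic partner of EME1, in hGFAP-Gnas, at -0.53 ± 0.16 (adjusted p = 0.0286). Base excision repair had 11 of 16 called higher and 0 called lower in both knockouts. Its lowest log2 fold was -1.34 in Olig1-Gnas and -1.14 in hGFAP-Gnas, neither called. In each comparison 1 listed gene had every knockout library below every Ctrl library. The rises were led by the DNA glycosylase gene Neil3, listed at 0 in 1 Ctrl library, with 4.34 ± 0.22 (adjusted p = 1.78e-08) in Olig1-Gnas and 3.42 ± 0.71 (adjusted p = 0.00911) in hGFAP-Gnas. Apex1, the abasic site endonuclease, had 3.88 ± 0.23 (adjusted p = 5.35e-08) and 2.96 ± 0.68 (adjusted p = 0.0116), and Ung, the uracil glycosylase, had 3.11 ± 0.17 (adjusted p = 2.98e-08) and 2.60 ± 0.55 (adjusted p = 0.00935), each in that order. Mismatch repair had 5 of 6 higher in Olig1-Gnas and 4 of 6 in hGFAP-Gnas, with Msh3 at 0.75 and 0.65.

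End joining and nucleotide excision repair follow. End joining had 5 of 12 higher in Olig1-Gnas and 4 of 12 in hGFAP-Gnas, with 0 lower, shares near the 36.2% and 26.1% of all tested genes. Its largest folds were those of Polq, the polymerase of the alternative end joining route, at 1.99 ± 0.19 (adjusted p = 3.99e-06) in Olig1-Gnas and 1.45 ± 0.44 (adjusted p = 0.0266) in hGFAP-Gnas. Xrcc5, the larger Ku subunit, had 1.65 and 1.36, and Nhej1 had 1.20 and 0.80. Nucleotide excision repair had 10 of 17 higher and 2 lower in Olig1-Gnas, and 5 higher and 2 lower in hGFAP-Gnas, where the share higher was also near that of all tested genes. Ercc1, a subunit of a nuclease that cuts beside the lesion, had the largest rise at 1.33 and 1.00. Other called genes were Gtf2h2 at 0.83 and 0.64, Ddb1 at 0.88 and Ercc4 at -0.48 in Olig1-Gnas, and Xpa at 0.66 and Ddb2 at -0.46 in hGFAP-Gnas. Median log2 folds in Olig1-Gnas were 1.19 for base excision, 0.67 for mismatch repair, 0.50 for end joining and 0.48 for nucleotide excision, and in hGFAP-Gnas 0.94, 0.56, 0.35 and 0.32. The lists differ in size and no difference between them was tested. Between the knockouts none of these genes was called (limma), and unadjusted p was under 0.05 for 9 of 37 other recombination and Fanconi genes, 2 of 16 of base excision and 3 of 17 of nucleotide excision, against 23.7% of all tested genes.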

How the data were processed

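Cerebella were flash frozen, and RNA was extracted with Trizol, cleaned on RNeasy columns and made into TruSeq libraries from 1 µg, per the labels' protocols. The authors made the deposited FPKM with TopHat and Cufflinks on mm9, per the submitters' processing notes, as a separate table per knockout that repeats the Ctrl libraries. Versions, annotation, strandedness and depth are not given in the sources used here. FPKM are not counts, so no count test was run. Without strand information, reads of overlapping and antisense genes cannot be told apart.

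A gene entered a comparison when 3 of its libraries reached 1 FPKM. Values as log2(FPKM + 1) were fitted with limma 3.58.1 in R 4.3.3 (trended, robust moderation), with Benjamini-Hochberg adjustment over every gene tested, and calls were made below an adjusted p of 0.05. For each knockout the Ctrl columns came from the same table, so both comparisons rest on the same 3 mice. Each limma p-value sets the difference between 2 groups against the spread among the libraries within them. Relative depth was taken from the commonest ratio of values under 0.5 FPKM to those of Ctrl 2, and libraries under 0.6 were called shallower. Libraries with Ddx3y at 1 FPKM or more were taken to have Y-linked signal. The fit was tested on simulated data with changes planted in 200 genes. For Olig1-Gnas against Ctrl it recovered 15.4% of 1.5-fold, 51.5% of 2-fold and 84.1% of 4-fold changes. For hGFAP-Gnas against Ctrl the shares were 9.09%, 40.5% and 81.9%, so many smaller changes were missed. False calls averaged 5.3 and 5.6 genes per run in these 2 comparisons. Correlations used SciPy 1.17.1. Locations are as printed in the tables.

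The 34 members and the other lists were chosen with earlier results of these data known. All members are named, and of each other repair list up to 3 called genes with the largest change in each direction per comparison with Ctrl. Shares over all tested genes are given beside the members' counts. Some genes that this rule names are not reported here. Of 97 other repair genes 90 were in the tables. Alternatives covered the offset (0.1 FPKM), the filter (none, or 5 FPKM), scaling, moderation, the threshold (0.01), zeros, the design, and each library left out. Leaving out hGFAP-Gnas 1 within the deeper libraries, and both distant libraries between the knockouts, was chosen after seeing the data.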

Additional observations from a re-analysis of the deposited data

Results flagged for a closer look

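For each of the 34 genes, each knockout group of 8 libraries was searched for a single distant library by Dixon's ratio (critical value 0.526). It marked 21 of the 68 groups of values, where chance marks about 1 in 20, and the marked library was hGFAP-Gnas 1 in 14 and Olig1-Gnas 6 in 7. The genes are not independent, since the same library enters each search.

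hGFAP-Gnas 1 was the lowest library of its group in all 14. In FPKM it held Brca1 at 0.582, Bard1 at 0.186, Rbbp8 at 2.31, Rad51c at 1.22, Rad51ap1 at 3.67, Rad54l at 0, Fancc at 2.43 and Fancd2 at 0.520. It also held Fanci at 0.879, Exo1 at 0.238, Chek1 at 0.542, Chek2 at 0.630, Clspn at 0.479 and Topbp1 at 9.32 FPKM. Its Mki67 was 2.70 FPKM and its Gabra6 261 FPKM, the lowest and the highest of its group. Their part in these low values was not tested.

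Olig1-Gnas 6 was the lowest library of its group for Palb2 at 2.28, Rad51c at 1.94, Fancc at 3.68, Fancg at 6.44 and Rad50 at 2.44 FPKM. It was the highest for Fancb at 5.04 and Nbn at 27.7 FPKM. Its Mki67, at 264 FPKM, was the highest of its group, and its Gabra6 was 0.894 FPKM.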

How the results depend on the processing

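For Olig1-Gnas 27 to 34 members were called higher under every setting tried (32 in the report), 28 to 34 when 1 library was left out. Of all tested genes 26.8% to 42.1% were called higher over these settings. For hGFAP-Gnas (26 in the report) the count was 7 at a threshold of 0.01, 0 in the deeper libraries alone and 0 with a replicate block. It was 7 to 31 when 1 library was left out, and 19 to 29 under the other settings. Of all tested genes 26.1% were called higher in the report. The share was 5.29% at 0.01, 0.0433% in the deeper libraries and 0% with the block. It was 4.78% to 38.0% when 1 library was left out, and 14.4% to 30.8% under the other settings. Other repair genes called in hGFAP-Gnas (44 in the report) numbered 6 at 0.01, 0 in the deeper libraries, 16 in the shallower ones and 0 with the block, and 7 to 59 when 1 library was left out. Of all tested genes 38.9% were called in either direction in the report. In the same order of settings the share was 6.44%, 0.0433%, 16.9%, 0% and 5.74% to 57.4%. With the block limma called 0 of all genes in hGFAP-Gnas, where 2654 had an unadjusted p under 0.05. The replicate block pairs only the 3 numbers shared with Ctrl. For these, deviations of same-numbered libraries from their group means correlated at -0.178 to 0.124. With 3 Ctrl libraries this cannot decide whether the numbers pair the samples. In Olig1-Gnas the block left 32 members called. No tested member was called lower in any setting, and none in either direction between the knockouts. Members that correlated with Mki67 in Olig1-Gnas were 13 rather than 7 without the 2 farthest libraries. The fold of Nbn in hGFAP-Gnas turned to -0.00494 under quantile normalization (adjusted p = 0.983). The same normalization removed the calls of Fancb, Fance, Fancg, Mre11a and Rad50 in hGFAP-Gnas (limma, adjusted p = 0.0524 to 0.120). In Olig1-Gnas it removed those of Fancg (adjusted p = 0.0562) and Atr (adjusted p = 0.124). Upper quartile scaling and quantile normalization moved the median fold of all genes to 0.06 and 0.06 in Olig1-Gnas, against 0.22, and to 0.07 and -0.01 in hGFAP-Gnas, against 0.19. Single-gene folds lost their call in 46 cases of Olig1-Gnas and 157 of hGFAP-Gnas, over all settings and members. The causes were not tested. Read depth is unknown, which limits the values under 1 FPKM in Ctrl.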

Other observations

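Olig1-Gnas 6 was unlike a library with a uniformly low level of the set. It was the lowest of its group for 18 members, among them Rad51c, Rad50, Fancg, Atm and Atr, and the highest for 5, which were Xrcc2, Fancb, Blm, Nbn and Topbp1. Its members summed to 487 FPKM, near the group median of 495. Outside the set its mismatch repair genes summed to 51.0 FPKM and its base excision genes to 332 FPKM, the lowest of its group for both lists, where the group medians were 98.9 and 492 FPKM.

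hGFAP-Gnas 2 and 7 lay between hGFAP-Gnas 1 and the other 5 libraries of the group, with member sums of 290 and 268 FPKM. Their Gabra6 was 128 and 159 FPKM, and their markers of dividing cells summed to 716 and 495 FPKM.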
